A study of Mus musculus with 24 samples.

Results

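Btg1, Btg2, Btg3, Tob1 and Tob2 encode the antiproliferative Btg and Tob proteins, and their probes were followed on all 24 arrays of a study of mouse Th1 and Th2 cells. The members were taken by gene symbol, and all 5 genes had a probe, 6 probes in all, among 20028 genes with a probe on the array. Each array compared the RNA of 1 T cell culture, labelled with Cy3, with RNA of naive CD4+CD62L+CD25-CD44lo T cells, labelled with Cy5, which came from the lymph nodes and spleens of female C57BL/6 mice and served as a common reference. The mice carried no transgene or deletion that the labels name, and their age was not given. The cultures were Th1 cells (14 arrays) and Th2 cells (10 arrays), differentiated in vitro from naive T cells and then left unstimulated or reactivated. They were treated with the vehicle DMSO, with 50 or 500 nM JQ1, a BET bromodomain inhibitor, or with 1 or 10 µM flavopiridol, an inhibitor of the kinase Cdk9 of the elongation factor P-TEFb. Every culture was treated for 6 hr except for 4 Th1 arrays at 24 hr (DMSO and 500 nM JQ1) and the Th2 DMSO arrays, for which one label gave 24 hr and another 6 hr, so that their time is uncertain. Each condition had 1 array. Contexts (cell type, reactivation state or drug) therefore stood in for replicates, and the SE and p-values below measure the spread between contexts, not between cultures or animals.

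Btg and Tob proteins share a domain that binds Cnot7 and Cnot8, the Caf1 deadenylases of the CCR4-NOT complex, and through it they promote shortening of mRNA poly(A) tails. The Tob proteins also bind the cytoplasmic poly(A)-binding protein. Members of the family slow the passage of cells from G1 into S phase when overexpressed, Btg1 and Btg2 help to keep naive T cells quiescent, and Tob1 is known as a negative regulator of T cell activation.

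The promoters of the 5 genes were compared first, because the drugs act on transcription. Sequences were RefSeq's (GRCm38.p6), from 250 bases before to 50 bases after each transcription start, and 6 promoters were found for the 5 genes. 3 are printed below, those of the member with the largest difference in flavopiridol (Btg1), of the one with the largest in JQ1 (Tob1) and of the other quiescence-associated member (Btg2). Both strands were searched for 4 motifs, and capitals mark the matches. The TATA box was searched as TATAAA. The cyclic AMP response element was searched as TGACGTCA. The CCAAT box reads as its reverse complement where it lies on the other strand. The AP-1 site, searched as TGACTCA, matched in none of the 6.
Btg1, chr10:96616751-96617050, plus strand: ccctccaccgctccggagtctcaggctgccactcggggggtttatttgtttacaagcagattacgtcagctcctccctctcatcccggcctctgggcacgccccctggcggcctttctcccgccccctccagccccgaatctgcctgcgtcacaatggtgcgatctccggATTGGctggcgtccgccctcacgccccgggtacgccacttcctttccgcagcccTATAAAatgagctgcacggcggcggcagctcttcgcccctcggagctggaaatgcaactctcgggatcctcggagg
Tob1, chr11:94211204-94211503, plus strand: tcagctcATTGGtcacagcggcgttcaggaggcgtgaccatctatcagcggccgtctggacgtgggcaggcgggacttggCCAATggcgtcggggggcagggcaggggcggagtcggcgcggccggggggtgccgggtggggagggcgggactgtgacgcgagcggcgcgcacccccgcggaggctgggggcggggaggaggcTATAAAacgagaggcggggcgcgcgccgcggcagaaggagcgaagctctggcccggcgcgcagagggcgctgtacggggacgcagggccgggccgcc
Btg2, chr1:134079106-134079405, minus strand: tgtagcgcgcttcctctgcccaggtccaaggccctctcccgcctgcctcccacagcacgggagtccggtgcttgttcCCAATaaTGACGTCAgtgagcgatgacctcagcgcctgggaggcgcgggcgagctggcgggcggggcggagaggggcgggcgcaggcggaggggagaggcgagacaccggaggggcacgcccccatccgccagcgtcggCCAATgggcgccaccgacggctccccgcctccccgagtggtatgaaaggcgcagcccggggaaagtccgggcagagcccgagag
TATAAA was found in Btg1, with its first base at position -26 from the start, and in Tob1, at -47. It was found in 13.6% of all 32851 promoters of this length. TGACGTCA was found in Btg2 alone among the members, at -166, and in 1.79% of all promoters. The CCAAT box was in 5 of the 6 member promoters and in 37.4% of all. No motif matched in the Tob2 promoter. The GC content was 64.7% for Btg1, 72% for Btg2, 75.3% for Tob1, 58% for Tob2 and 75.7% and 57.7% for the 2 Btg3 promoters, against a median of 52.7% over all promoters.

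The cells were checked against markers. Cd3e, Cd3g and Cd4 were well above background on all arrays. In DMSO the log2 ratio of the Th1 cytokine gene Ifng to naive cells was 7.08 to 8.59 in Th1 and 0.65 and 6.20 in Th2 cells, and that of the Th2 regulator Gata3 was -0.52 to 0.55 in Th1 and 1.95 to 2.64 in Th2 cells. The Th1 regulator Tbx21 reached 4.64 on one of the 2 Th2 DMSO arrays and -0.02 on the other. Of 4 B cell markers all were detected on some arrays (Ms4a1 1.43 to 1.85 in Th1 and 3.84 to 4.03 in Th2 cells in DMSO), and of 4 myeloid markers 3 were: Itgam and Csf1r on all 24 arrays and Adgre1 on some, while the defining gene Lyz2 was on none. The summed Cy3 signal of the myeloid list was 11600 to 19200 in DMSO, 10700 to 18600 in JQ1 and 4570 to 13600 in flavopiridol. Of 2 NK cell genes, Ncr1 was above background on 1 flavopiridol array and Klrb1c on none. The part of these markers in the results was not tested. In DMSO 48.8 to 52% of probes gave a Cy3 signal well above background, and in flavopiridol 35.5 to 41.5%.

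Levels are given as the log2 ratio of a culture to the naive reference after loess normalization within each array, where 0 means the naive level. The reference itself was steady: over the 24 arrays the Cy5 signal of the 6 probes ranged by 0.35 to 0.56 on the log2 scale, while the Cy3 signal ranged by 3.12 to 7.43. No member probe was saturated. Tob1 was not well above background in Cy3 on 3 unstimulated flavopiridol arrays (Th1 1 µM, Th1 10 µM and Th2 1 µM), nor was the second Btg1 probe on 3 (Th1 10 µM, Th2 1 µM and Th2 10 µM). Within the family, Btg4 was below background on all 24 arrays.

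**Figure D1:**
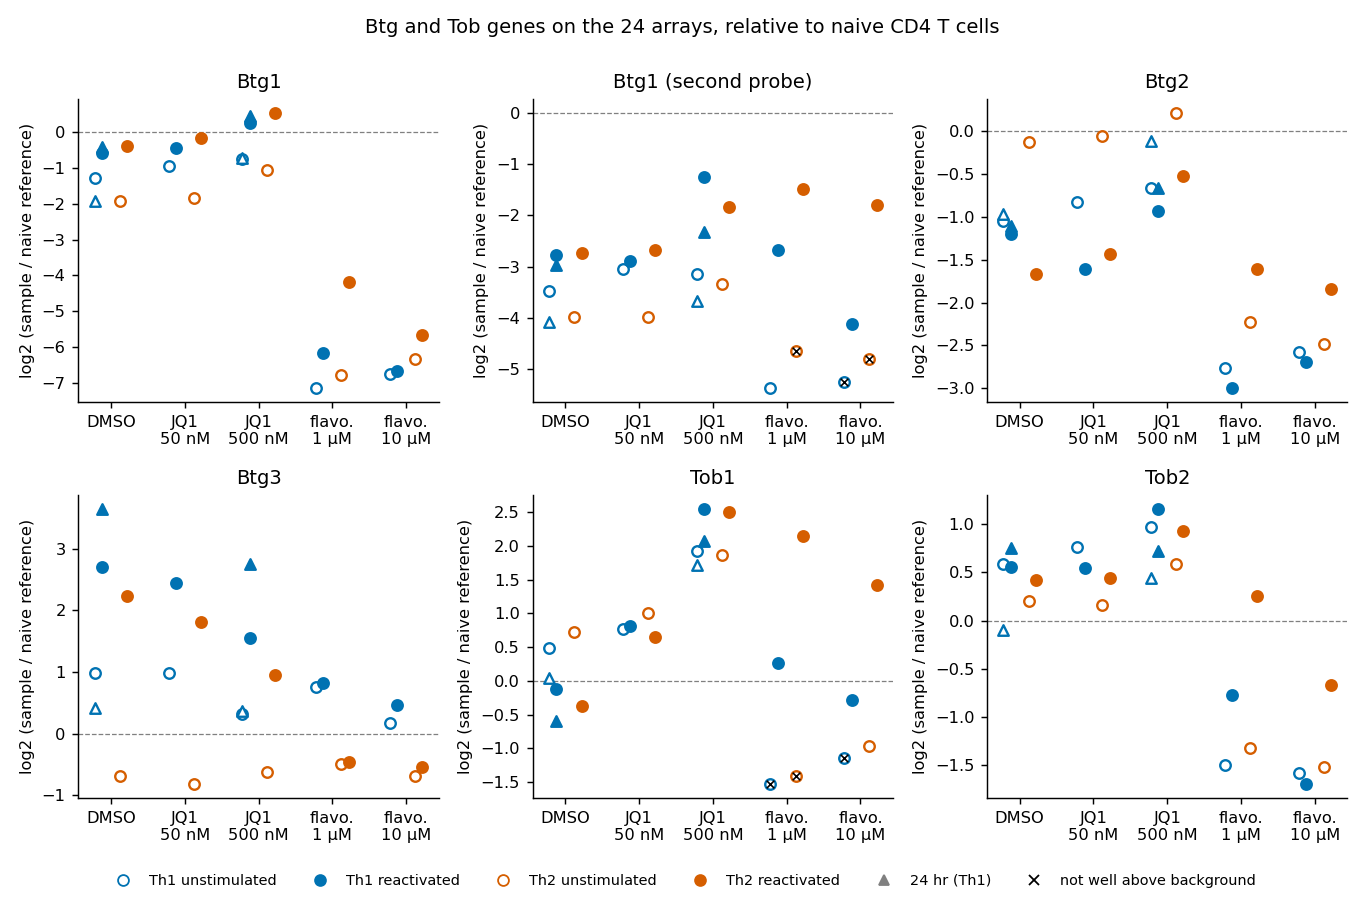
Level of each Btg and Tob gene on the 24 arrays, as log2 ratio of the culture to naive CD4 T cells, by drug; each point is 1 array, open symbols unstimulated and filled symbols reactivated, Th1 in blue, Th2 in orange, triangles 24 hr, crosses not well above background. Btg1 lies between -1.93 and 0.54 without flavopiridol and between -7.16 and -4.20 with it, while its second probe, at -5.38 to -1.26, overlaps between these groups.

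Unstimulated Th1 and Th2 cells in DMSO gave a lower Btg1 and Btg2 signal than the naive reference. The Btg1 log2 ratio was -1.28 in Th1 cells at 6 hr, -1.92 in Th1 cells at 24 hr and -1.93 in Th2 cells. All 3 arrays lay below the naive level, with a mean of -1.71 ± 0.17 (SE, n = 3 arrays, limma adjusted p = 0.00118), a 3.27-fold difference. Btg2, an immediate-early gene and p53 target, was at -1.05, -0.97 and -0.13 in the same order. Its mean was -0.72 ± 0.21 (adjusted p = 0.0344), with the Th2 array close to naive cells. Thus 2 of 5 members were lower and none was higher, beside 53.4% of 11771 genes called in this comparison (31.1% higher and 22.3% lower). Tob1 (0.42 ± 0.16, adjusted p = 0.0758), Btg3 (0.24 ± 0.32, 0.555) and Tob2 (0.23 ± 0.16, 0.277) did not pass. RNA came from whole cultures, so fewer cells expressing a gene and less RNA per cell cannot be told apart, here or below. The Btg2 call was lost without the Th1 6 hr array (-0.55, adjusted p = 0.15) or the Th1 24 hr array (-0.59, 0.168), while Btg3 was called higher without the Th2 array (0.70, 0.00746). The other calls depended on scaling. With each array centred on its spike-in RNA, Tob1 (0.91, adjusted p = 0.00532) and Tob2 (0.70, 0.00982) were called higher and Btg2 was not called (-0.25, 0.357), and with the spike-in shift after loess the values were 0.73 (0.0141), 0.54 (0.0303) and -0.40 (0.168). These scalings moved the share of all genes called higher and lower to 60.9% and 9.18% and to 49.2% and 11.7%, and median centring to 16.8% and 48.2%. Btg1 was called lower under all 3. The second Btg1 probe gave -3.85 ± 0.16 (adjusted p = 6.94e-05), the same direction but another size. Every culture was labelled with Cy3 and the naive RNA with Cy5, with no dye swap. A dye bias of a probe thus cannot be told apart from a difference to naive cells. The spread of the naive reference itself is left out of these SE and p-values.

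On reactivation in DMSO, Btg3 and Btg1 rose and Tob1 fell. These 3 of 5 members stood beside 50.9% of 12530 genes called in this comparison (21.9% higher and 29% lower). With spike-in centring these shares were 29.2% and 16.9%, and with the spike-in shift 32.6% and 16.8%. Btg3, the family member also known as Ana, which can bind E2F1, had a log2 ratio of 0.99 in unstimulated and 2.70 in reactivated Th1 cells at 6 hr. At 24 hr the same values were 0.41 and 3.65, and in Th2 cells they were -0.68 and 2.24. Every reactivated array was above every unstimulated one, and the mean rise was 2.63 ± 0.29 (SE, n = 3 pairs, adjusted p = 0.000799), or 6.17-fold.

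Btg1 went from -1.28 to -0.59 in Th1 cells at 6 hr, from -1.92 to -0.40 at 24 hr and from -1.93 to -0.37 in Th2 cells. All 3 reactivated arrays stayed below the naive level, yet none overlapped with the unstimulated arrays, and the mean rise was 1.26 ± 0.20 (adjusted p = 0.00293). Its second probe rose by 1.02 ± 0.15 (adjusted p = 0.00222). Tob1 went the other way, from 0.49 to -0.12, from 0.04 to -0.59 and from 0.73 to -0.37 in the same order. The 3 reactivated arrays lay below the 3 unstimulated ones, with a mean change of -0.78 ± 0.15 (adjusted p = 0.00585), or 1.72-fold.

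For Btg2 the pairs were -1.05 and -1.20, -0.97 and -1.11, and -0.13 and -1.67, so that nearly all of the mean change of -0.61 ± 0.29 (adjusted p = 0.124) lay in Th2 cells. Tob2 had pairs of 0.59 and 0.56, -0.10 and 0.75, and 0.20 and 0.42, with overlapping groups (0.35 ± 0.19, adjusted p = 0.172), and was called higher by the 2 spike-in scalings (0.61, 0.0165, and 0.64, 0.0193). Both arrays of each pair lay on 1 slide. The 3 calls held in all 13 alternative settings and when each of the 6 arrays was left out.

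**Figure D2:**
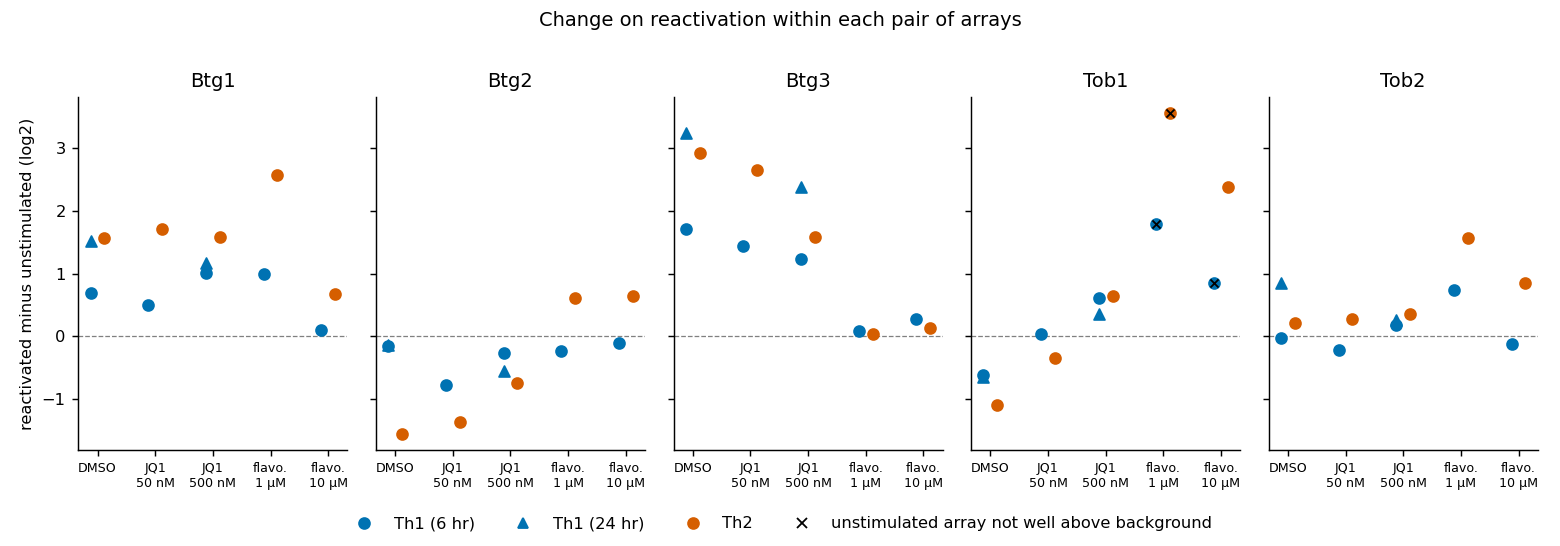
Difference between the reactivated and the unstimulated array of each pair (log2) for the 5 genes, by drug; each point is 1 pair, circles 6 hr or, for Th2 DMSO, an uncertain time, triangles 24 hr, Th1 in blue and Th2 in orange, and a cross marks an unstimulated array not well above background. Btg3 pairs lie at 1.71 to 3.24 in DMSO and at 0.04 to 0.28 in flavopiridol, and Tob1 pairs at -1.10 to -0.61 in DMSO and at 0.36 to 0.64 in 500 nM JQ1.

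All 5 members differed between 500 nM JQ1 and DMSO, beside 47.6% of 12911 genes called (17.7% higher and 29.9% lower). Tob1, Btg1, Btg2 and Tob2 were higher and Btg3 was lower. Tob1 moved most. In unstimulated Th1 cells at 6 hr its log2 ratio was 0.49 in DMSO, 0.77 in 50 nM and 1.93 in 500 nM JQ1. In reactivated Th1 cells it was -0.12, 0.81 and 2.55. In Th2 cells it was 0.73, 1.00 and 1.86 unstimulated and -0.37, 0.65 and 2.50 reactivated. The 500 nM arrays were the highest of all 3 treatments in each of the 4 contexts and did not overlap with the DMSO arrays. The estimate was 2.02 ± 0.24 (SE, n = 4 contexts, adjusted p = 8.94e-05), or 4.07-fold, and Tob1 ranked 8 from the top of the 12911 genes.

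The Th1 arrays at 24 hr, which the fit did not use, had Tob1 at 0.04 in DMSO and 1.72 in 500 nM JQ1 unstimulated, and at -0.59 and 2.08 reactivated. These differences, 1.67 and 2.67, were as large as those at 6 hr (1.44 and 2.67). At each time the Th1 DMSO and JQ1 arrays shared a slide, whereas the Th2 ones did not. The Tob1 call held in all 15 alternative settings (1.41 to 2.29).

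Btg1 was at -1.28, -0.59, -1.93 and -0.37 in DMSO (Th1 unstimulated, Th1 reactivated, Th2 unstimulated and Th2 reactivated) and at -0.76, 0.26, -1.05 and 0.54 in 500 nM JQ1. Each context was higher with the drug, by 0.79 ± 0.10 (adjusted p = 0.000123), and both reactivated JQ1 arrays were above the naive level. The second probe gave 0.85 ± 0.21 (adjusted p = 0.0061). Btg2 was at -1.05, -1.20, -0.13 and -1.67 in DMSO and at -0.66, -0.93, 0.21 and -0.52 in 500 nM JQ1, a difference of 0.54 ± 0.15 (adjusted p = 0.0122). Tob2 was at 0.59, 0.56, 0.20 and 0.42 in DMSO and at 0.97, 1.16, 0.59 and 0.93 in 500 nM JQ1, a difference of 0.47 ± 0.08 (adjusted p = 0.000807). For these genes the order within each context was the same although the groups as a whole overlapped. In the Th1 24 hr pairs outside the fit, unstimulated and reactivated, Btg1 was 1.19 and 0.85 higher with JQ1 and Btg2 0.85 and 0.44 higher, while the Tob2 differences were 0.54 and -0.04 and those of Btg3 -0.04 and -0.89. In Th1 contexts alone, without the Th2 DMSO arrays of uncertain time, Btg2 (0.33, adjusted p = 0.226) and Tob2 (0.48, 0.0588) were not called. The 3 smaller calls also depended on scaling. With each array centred on its spike-in RNA, Btg1 was at 0.27 (adjusted p = 0.407), Btg2 at -0.07 (0.842) and Tob2 at -0.15 (0.653), with the median of all genes at -0.54 against -0.07 after loess. Median centring also lost Btg2 (0.19, adjusted p = 0.325) and Tob2 (0.11, 0.446). Without the context block only 1 member, Tob1, was called.

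Btg3 was at 0.99, 2.70, -0.68 and 2.24 in DMSO and at 0.32, 1.55, -0.62 and 0.96 in 500 nM JQ1. It was lower in both reactivated contexts and in unstimulated Th1 cells, and 0.06 higher in unstimulated Th2 cells, with an estimate of -0.76 ± 0.19 (adjusted p = 0.00721). No member passed at 50 nM JQ1, where limma called 44 genes, 0.341% (0.256% higher and 0.0852% lower). By an unadjusted p under 0.05, 1 member, Tob1, and 1701 genes passed (0.62 ± 0.24, 95% interval 0.09 to 1.16, adjusted p = 0.298). Between the doses, 500 nM against 50 nM, all 5 passed beside 31.3% of genes (10.7% higher and 20.5% lower): Tob1 by 1.40 ± 0.24, Btg1 by 0.59 ± 0.10, Btg2 by 0.51 ± 0.15, Tob2 by 0.43 ± 0.08 and Btg3 by -0.55 ± 0.19. This dose difference for Btg3 was lost when any 1 of 8 arrays was left out (-0.55 to -0.41, adjusted p 0.054 to 0.15), and that for Btg2 was lost without the reactivated Th1 50 nM (0.41, adjusted p = 0.0996), Th2 500 nM (0.34, 0.0703) or Th2 50 nM array (0.48, 0.0816). By the 2 spike-in scalings Btg1 was at 0.06 (adjusted p = 0.847) and 0.02 (0.956), Btg2 at -0.09 and -0.06 and Tob2 at -0.17 and -0.14, none of them called, while the share of all genes called higher and lower was 0.108% and 37.5%, and 0.0542% and 30.4%. With median centring it was 2.87% and 33%, and Btg2 (0.23, 0.269) and Tob2 (0.15, 0.348) were lost. In Th1 contexts alone Btg1 (0.43, 0.147), Btg2 (0.43, 0.185) and Tob2 (0.41, 0.141) were not called. The summed Cy3 signal of the B cell markers was 1060 to 4730 in DMSO, 547 to 3770 in JQ1 and 447 to 1450 in flavopiridol. These ranges overlapped and pooled contexts that were not matched. The part of these markers in the differences was not tested.

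**Figure D3:**
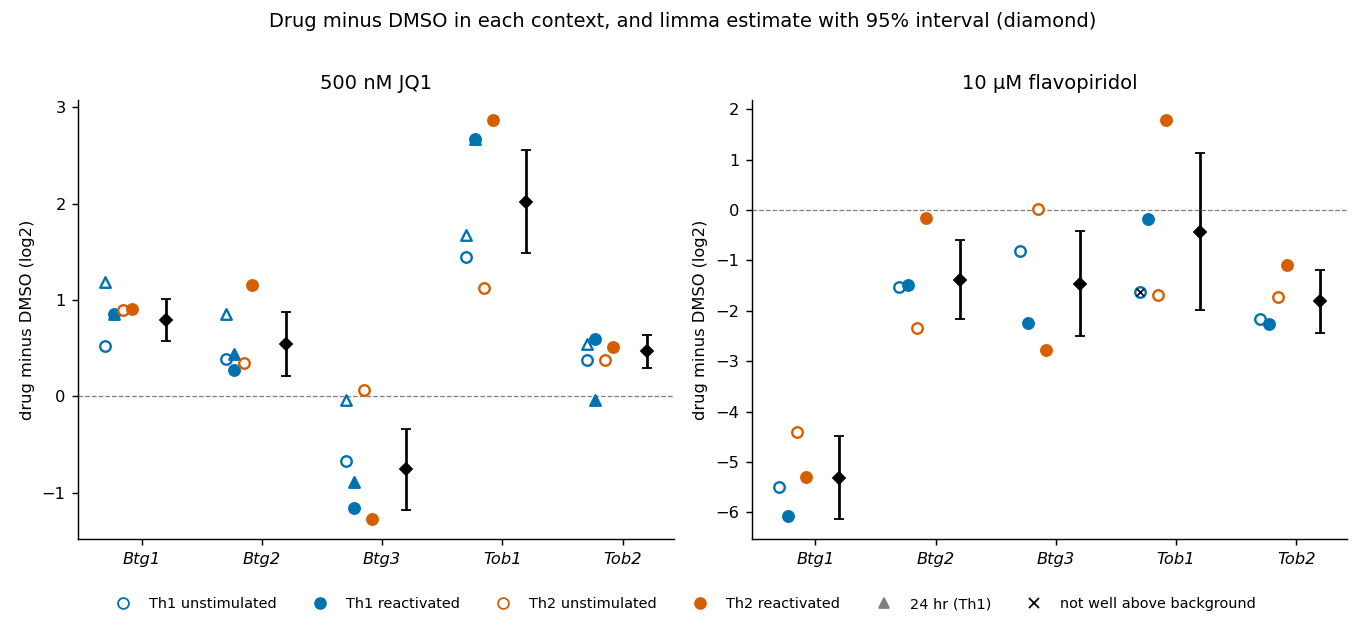
Difference between drug and DMSO (log2) for 500 nM JQ1 and 10 µM flavopiridol; circles are the 6 hr contexts, triangles the Th1 24 hr pairs outside the fit, crosses arrays not well above background, and diamonds the limma estimate with its 95% interval. Tob1 (2.02) stands highest under JQ1 and Btg1 (-5.32) lowest under flavopiridol; the smaller JQ1 differences of Btg2 and Tob2 changed sign when arrays were centred on spike-in RNA.

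On reactivation in 500 nM JQ1 the Tob1 pairs were 1.93 and 2.55 in Th1 cells at 6 hr, 1.72 and 2.08 at 24 hr, and 1.86 and 2.50 in Th2 cells, so that every reactivated array lay above every unstimulated one. After loess Tob1 rose by 0.54 ± 0.12 (SE, n = 3 pairs, adjusted p = 0.0122), where it had fallen in DMSO. This rise was lost with median centring (0.24, adjusted p = 0.247), spike-in centring (0.15, 0.898) and the spike-in shift (0.12, 0.901), which moved the median of all genes from -0.06 to -0.27, -0.36 and -0.48. The JQ1 effect on Tob1 was 1.49 ± 0.16 larger in reactivated than in unstimulated cells (n = 2 cell types, adjusted p = 0.00132), and this difference kept its call whichever of the 12 arrays was left out (1.34 to 1.64). It was lost when arrays were scaled to spike-in RNA (0.41, adjusted p = 0.283, and 0.29, 0.504, by the 2 ways of doing so), which moved the median of all genes in this comparison from -0.01 to -1.03 and -1.21. On the reactivated Th1 500 nM JQ1 array the spike-in RNA lay at 0.90 after loess, against -0.42 to 0.20 on the other 5 arrays at 500 nM.

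Btg3 still rose on reactivation in 500 nM JQ1, from 0.32 to 1.55, 0.37 to 2.76 and -0.62 to 0.96, by 1.73 ± 0.22 (adjusted p = 0.00163). Btg1 rose by 1.26 ± 0.15 (adjusted p = 0.00118), from -0.76 to 0.26, -0.73 to 0.45 and -1.05 to 0.54. Btg2 fell by 0.52 on the log2 scale (SE 0.13, adjusted p = 0.0198), from -0.66 to -0.93, -0.12 to -0.67 and 0.21 to -0.52, and Tob2 was at 0.27 ± 0.11 (adjusted p = 0.0954). This made 4 of 5 members, beside 46.1% of 12133 genes (18.4% higher and 27.7% lower). By spike-in centring and the spike-in shift, where 2.65% and 8.96%, and 2.05% and 6.08% of genes were called higher and lower, Btg1 was not called (0.80, adjusted p = 0.293, and 0.84, 0.369), nor was Btg2 (-0.90, 0.212, and -0.95, 0.291), and Btg3 was lost with the shift (1.31, 0.108). In the test of the difference in JQ1 effect between reactivated and unstimulated cells, 10.1% of 12911 genes passed (4.5% higher and 5.62% lower), and among the members Btg3 (-0.91 ± 0.25, adjusted p = 0.0471) besides Tob1. With spike-in centring the count was instead 4 lower and none higher, Btg1 (-1.00, adjusted p = 0.0127), Btg2 (-0.76, 0.049) and Tob2 (-0.95, 0.0167) being called lower with Btg3, beside 77.7% of all genes lower and 0.108% higher. The Btg3 difference was lost in 11 of the 12 fits without 1 array (-1.06 to -0.52, adjusted p 0.0538 to 0.186) and kept only without the unstimulated Th1 500 nM JQ1 array (-1.31, 0.00375). For the pairs in JQ1, the Tob1 call was lost without the unstimulated or the reactivated Th2 array (0.49 each, adjusted p = 0.0619 and 0.0599). The Btg2 call was lost without either Th2 array (-0.41, adjusted p = 0.102 and 0.0992) or either Th1 24 hr array (-0.51, 0.0829 and 0.0823).

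In flavopiridol Btg1, by its brightest probe, differed most from DMSO within the family. In 1 µM flavopiridol the Btg1 log2 ratio was -7.16 and -6.17 in unstimulated and reactivated Th1 cells and -6.78 and -4.20 in Th2 cells. In 10 µM it was -6.77, -6.67, -6.34 and -5.67 in the same order. All 8 arrays lay far below the 4 DMSO arrays (-1.93 to -0.37), with estimates of -5.03 ± 0.36 at 1 µM (adjusted p = 1.67e-05) and -5.32 ± 0.36 at 10 µM (2.22e-05), or 32.8-fold and 39.9-fold. By this probe Btg1 ranked 1 among the 12432 genes for the fall at 1 µM and 2 at 10 µM.

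The second Btg1 probe did not show it. In DMSO it was at -3.48, -2.77, -3.99 and -2.74 (Th1 unstimulated, Th1 reactivated, Th2 unstimulated and Th2 reactivated), in 1 µM flavopiridol at -5.38, -2.67, -4.66 and -1.48, and in 10 µM at -5.25, -4.12, -4.81 and -1.79. It was lower than DMSO in all 4 unstimulated pairs and higher in 3 of 4 reactivated ones, with estimates of -0.30 ± 0.47 (adjusted p = 0.613) and -0.74 ± 0.47 (0.22). Where its signal was below background, DMSO was, in the Cy3 channel alone, at least 2.96-fold (Th1 10 µM), 1.35-fold (Th2 1 µM) and 1.60-fold (Th2 10 µM) higher; such a bound sets the DMSO signal against the lowest Cy3 signal well above background on the dim array, or the dim probe's own where that was higher, both after normalization between arrays, and is not on the scale of the log2 ratios. The positions of both probes in the transcript were not given, and a further probe, named for the gene Btg1c, was detected on 22 arrays in Cy3. The size of the Btg1 difference in flavopiridol, and in reactivated cells its direction, thus depended on the probe, while its direction in reactivation in DMSO, in 500 nM JQ1 and against naive cells did not.

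Btg2 and Tob2 were also called lower at both doses of flavopiridol, and Btg3 at 10 µM alone. Btg2 was at -2.76, -3.00, -2.23 and -1.61 in 1 µM and at -2.58, -2.69, -2.48 and -1.84 in 10 µM (Th1 unstimulated, Th1 reactivated, Th2 unstimulated and Th2 reactivated), against -1.05, -1.20, -0.13 and -1.67 in DMSO. In reactivated Th2 cells the flavopiridol and DMSO arrays were close, and the estimates were -1.38 ± 0.34 at both doses (adjusted p = 0.00883 and 0.00967). Tob2 was at -1.50, -0.77, -1.32 and 0.25 in 1 µM and at -1.58, -1.70, -1.52 and -0.67 in 10 µM, against 0.59, 0.56, 0.20 and 0.42 in DMSO. Every context was lower with the drug, by 1.28 ± 0.27 (adjusted p = 0.0044) and 1.81 ± 0.27 (0.000821) on the log2 scale. Over the alternative settings Btg2 ran from -3.11 to -1.27 at 1 µM and from -3.32 to -1.29 at 10 µM. Tob2 ran from -2.99 to -1.28 at 1 µM and from -3.72 to -1.81 at 10 µM.

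Btg3 was at 0.75, 0.83, -0.50 and -0.46 in 1 µM and at 0.18, 0.47, -0.68 and -0.54 in 10 µM. Against DMSO (0.99, 2.70, -0.68 and 2.24) the difference after loess was large only in the reactivated arrays, with estimates of -1.16 ± 0.46 (adjusted p = 0.0634) and -1.46 ± 0.46 (0.0286). The Btg3 call at 10 µM was lost when 1 of 5 arrays was left out, which were the reactivated Th1 (-1.21, adjusted p = 0.0894) and Th2 DMSO arrays (-0.98, 0.0632), the unstimulated (-1.52, 0.0607) and reactivated (-1.31, 0.0902) Th1 10 µM arrays and the reactivated Th2 10 µM array (-1.27, 0.0923). It was also lost in Th1 contexts alone (-1.52, 0.0625). The other 3 scalings moved the estimate at 10 µM to -2.58, -3.17 and -2.58. At 1 µM the call was gained without the unstimulated Th1 DMSO array (-1.42, 0.0465) or Th2 DMSO array (-1.62, 0.0102). It was also gained with median centring (-2.08, adjusted p = 0.0056), spike-in centring (-2.58, 0.00197) and the spike-in shift (-2.07, 0.00458).

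In all, 4 of 5 members were lower at 10 µM, beside 48.9% of 12432 genes called (15.4% higher and 33.5% lower), and 3 of 5 at 1 µM, beside 51.7% (16.2% higher and 35.4% lower). These counts use the brightest Btg1 probe, and with its second probe they were 3 and 2. No flavopiridol array shared a slide with the DMSO array of its own context. The Th2 flavopiridol arrays were on 1 slide with the Th1 24 hr DMSO arrays, with cell type and time differing too. There Btg1, by its brightest probe, was at -6.78 to -4.20 with the drug and at -1.92 and -0.40 without it. Its second probe was at -4.81 to -1.48 with the drug and at -4.08 and -2.98 without it, with overlap. With slide as a random block the 10 µM calls of Btg1, by its brightest probe (-5.32 ± 0.48, adjusted p = 0.000231), and Tob2 (-1.81 ± 0.36, 0.00582) were kept. Those of Btg2 (-1.38 ± 0.47, adjusted p = 0.0516) and Btg3 (-1.46 ± 0.65, 0.117) were lost, with the same estimates and a larger SE. At 1 µM all 3 calls were kept with this block. Both drugs were compared with the same DMSO arrays. Marker levels also had other ranges in flavopiridol. The summed Cy3 signal of the 3 naive T cell markers was 7790 to 65500 in DMSO and 8800 to 10900 in flavopiridol, and that of the 2 CD8 T cell markers 174 to 465 and 274 to 648. Their part in these differences was not tested. Between 10 and 1 µM no member passed, where limma called 1.88% of genes (1.5% higher and 0.378% lower), and none was under an unadjusted p of 0.05, against 1424 genes: Btg1 -0.28 (95% interval -1.11 to 0.54), Btg2 0.00 (-0.78 to 0.78), Btg3 -0.30 (-1.35 to 0.75), Tob1 -0.11 (-1.67 to 1.45) and Tob2 -0.53 (-1.16 to 0.09).

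After loess, Tob1 was lower in flavopiridol than in DMSO in unstimulated cells and mostly higher in reactivated cells. In unstimulated cells it was at -1.53 (Th1 1 µM), -1.14 (Th1 10 µM), -1.41 (Th2 1 µM) and -0.96 (Th2 10 µM), against 0.49 in Th1 and 0.73 in Th2 DMSO cells. In reactivated cells it was at 0.26, -0.29, 2.15 and 1.42 in the same order, against -0.12 and -0.37. All 4 unstimulated arrays lay below DMSO and 3 of 4 reactivated ones above it, the reactivated Th1 10 µM array being lower. These signs hold on the loess scale, since the other 3 scalings lowered the estimate over the 4 contexts at 10 µM to -1.61, -2.19 and -1.55. Where the unstimulated array was below background, DMSO was, by the Cy3 channel alone, at least 3.51-fold (Th1 1 µM), 3.10-fold (Th1 10 µM) and 3.95-fold (Th2 1 µM) higher. Over the 4 contexts together the estimate at 10 µM was -0.43 ± 0.68 (95% interval -1.99 to 1.13, adjusted p = 0.631), and without the reactivated Th2 DMSO array it was -1.27 (0.0418).

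The difference in the 10 µM flavopiridol effect between reactivated and unstimulated cells passed for 2 of 5 members, Tob1 (2.47 ± 0.65, adjusted p = 0.0438) and Btg3 (-2.11 ± 0.36, 0.0115), beside 15.8% of 12432 genes (8.9% higher and 6.93% lower). The Tob1 value is not exact, since the unstimulated Th1 10 µM array behind it was not well above background, and with genes above background on every array Tob1 was not tested. Its call was lost in 6 other settings (2.10 to 4.07, adjusted p 0.0708 to 0.112), the 2 spike-in scalings among them. The Btg3 call was lost with median centring (-1.85, adjusted p = 0.144), spike-in centring (-2.15, 0.222) and the spike-in shift (-2.30, 0.176), where 5.01% and 2.54%, 0.716% and 1.33%, and 0.105% and 0.547% of all genes were called higher and lower. For Btg1 (-0.74 ± 0.59 by the brightest and 1.11 ± 0.72 by the second probe), Btg2 (1.12 ± 0.58) and Tob2 (0.27 ± 0.43) the difference did not pass. The value of the second Btg1 probe is not exact, since neither unstimulated 10 µM array was well above background for it. The Tob1 difference rested on few arrays. It was called without the reactivated Th1 DMSO (3.49, adjusted p = 0.00112), the reactivated Th2 DMSO (1.44, 0.0124) or either reactivated 1 µM array (2.47, 0.044 each), and was lost without any of the other 8 arrays (2.02 to 2.92, adjusted p 0.076 to 0.193). The Btg3 difference was lost without the reactivated Th1 10 µM (-2.18, adjusted p = 0.0504), reactivated Th2 10 µM (-2.04, 0.0718) or unstimulated Th2 10 µM array (-1.81, 0.0771). Btg2 was called without the reactivated Th1 DMSO array (1.91, 0.0148).

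Within flavopiridol, reactivation left Btg3 nearly level, with pairs of 0.75 and 0.83, 0.18 and 0.47, -0.50 and -0.46, and -0.68 and -0.54 (0.13 ± 0.07, 95% interval -0.04 to 0.31, n = 4 pairs). Its rise in DMSO had been 1.71 to 3.24. No member passed in flavopiridol, where limma called 14 genes, 0.128% of 10920 (0.11% higher and 0.0183% lower), and where 3 members and 2491 genes had an unadjusted p under 0.05. Tob1 was at 2.15 ± 0.39 (95% interval 1.22 to 3.07, adjusted p = 0.0947), Btg1 at 1.09 ± 0.36 (0.162) and Tob2 at 0.76 ± 0.24 (0.153). By its second probe Btg1 was at 2.51 ± 0.32 (adjusted p = 0.0594). That value is not exact, since this probe was not well above background on the unstimulated Th1 10 µM, Th2 1 µM and Th2 10 µM arrays. Under other scalings more passed. Tob1 was called higher with median centring (1.89), spike-in centring (2.08) and the spike-in shift (2.24), Btg1 (1.35 and 1.18) and Tob2 (0.90 and 0.85) by both spike-in scalings and Btg2 by spike-in centring (0.41), and these 2 scalings called 10.9% and 5.58% of all genes higher. All 4 Tob1 pairs were higher in the reactivated array. The unstimulated array was well above background in the Th2 10 µM pair alone, where the difference was 2.38, so the other 3 differences are not exact. Without the unstimulated or the reactivated Th1 10 µM array the value was 2.58 (adjusted p = 0.0278 and 0.0277).

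Of the 5 members, Btg3 and Tob2 were higher in Th1 than in Th2 cells over the 6 DMSO and JQ1 pairs at matched state and dose, beside 28.6% of 12911 genes (14.5% higher and 14.1% lower). Btg3 was 1.02 ± 0.19 higher (adjusted p = 0.00602), called in all 14 alternative settings and without any 1 of the 12 arrays. Unstimulated, it was at 0.99, 0.98 and 0.32 in Th1 cells (DMSO, 50 and 500 nM JQ1) and at -0.68, -0.82 and -0.62 in Th2 cells, with no overlap. Reactivated, it was at 2.70, 2.44 and 1.55 against 2.24, 1.82 and 0.96, with overlap but the same order at each dose. The flavopiridol arrays outside this fit had Btg3 0.86 to 1.29 higher in Th1 cells. Tob2 was 0.31 ± 0.08 higher (adjusted p = 0.0208), a call lost without any 1 of the 6 unstimulated arrays (0.25 to 0.30, adjusted p 0.056 to 0.0578), lost under all 3 other scalings (0.19 to 0.20) and turned to -0.04 with the flavopiridol pairs included. Without the DMSO pairs, which hold the Th2 arrays of uncertain time, Tob2 was not called (0.33, adjusted p = 0.0853). Btg2 was at -0.45 ± 0.18 (adjusted p = 0.0906) and was called without the reactivated Th1 or Th2 DMSO array (-0.63, 0.0107 and 0.0108), with median (-0.54, 0.0353) or spike-in centring (-0.55, 0.0366), without the DMSO pairs (-0.56, 0.0376) and with the flavopiridol pairs (-0.56, 0.0126). Only the DMSO pairs were on 1 slide. Ms4a1 and Cd79b, both B cell markers, were higher in every Th2 range than in the Th1 range of the same drug, and Cd8a was above background on Th1 arrays and on none of the 10 Th2 arrays; their part was not tested.

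No member passed the test of its drug effect between Th1 and Th2 cells by limma, where 0.0161% of genes passed for 10 µM flavopiridol and 0% for 500 nM JQ1. At an unadjusted p under 0.05 no member passed either, against 1609 and 907 genes. The intervals were wide, from -4.75 to 2.85 for Tob1 in flavopiridol and -1.22 to 1.33 in JQ1. Between 24 and 6 hr in Th1 cells no member passed by limma, where 5.28% of 12533 genes did (2.38% higher and 2.9% lower), and 2 members and 3173 genes had an unadjusted p under 0.05. Tob1 was at -0.40 ± 0.10 (adjusted p = 0.0587) and Tob2 at -0.37 ± 0.15 (0.168), and Tob2 was called without the reactivated DMSO array of 24 hr (-0.55, 0.0494) or of 6 hr (-0.55, 0.0492). With the Cy3 channel alone (-0.77, adjusted p = 0.0306) and the authors' table (-0.78, 0.0259) Tob2 was also called. Btg1 was called by its second probe (-0.60, 0.0476) and not by its brightest (-0.06, 0.845). The 24 hr and 6 hr arrays never shared a slide.

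The drug comparisons depended on scaling as well. Loess centres each array, so a value is relative to the other genes on it. With 10 µM flavopiridol the median of all genes was -0.22 after loess, -1.06 after median centring and -1.65 and -1.35 by the 2 spike-in scalings, and the share of genes called higher and lower was 15.4% and 33.5%, 2.26% and 67%, 0.193% and 90.7%, and 0.869% and 79.6%. At 1 µM the shares went from 16.2% and 35.4% to 3% and 62.6%, 0.378% and 85%, and 1.42% and 69.7%. For 500 nM JQ1 they went from 17.7% and 29.9% to 5.7% and 45.1%, 0.867% and 40.9%, and 0.682% and 38.3%. Tob1, Btg1 and Btg3 kept their direction in JQ1, and Btg1, Btg2, Btg3, Tob1 and Tob2 theirs in flavopiridol, under all 3. Tob1 at 10 µM was then called lower: -1.61 (adjusted p = 0.0499), -2.19 (0.00509) and -1.55 (0.0216).

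**Figure D4:**
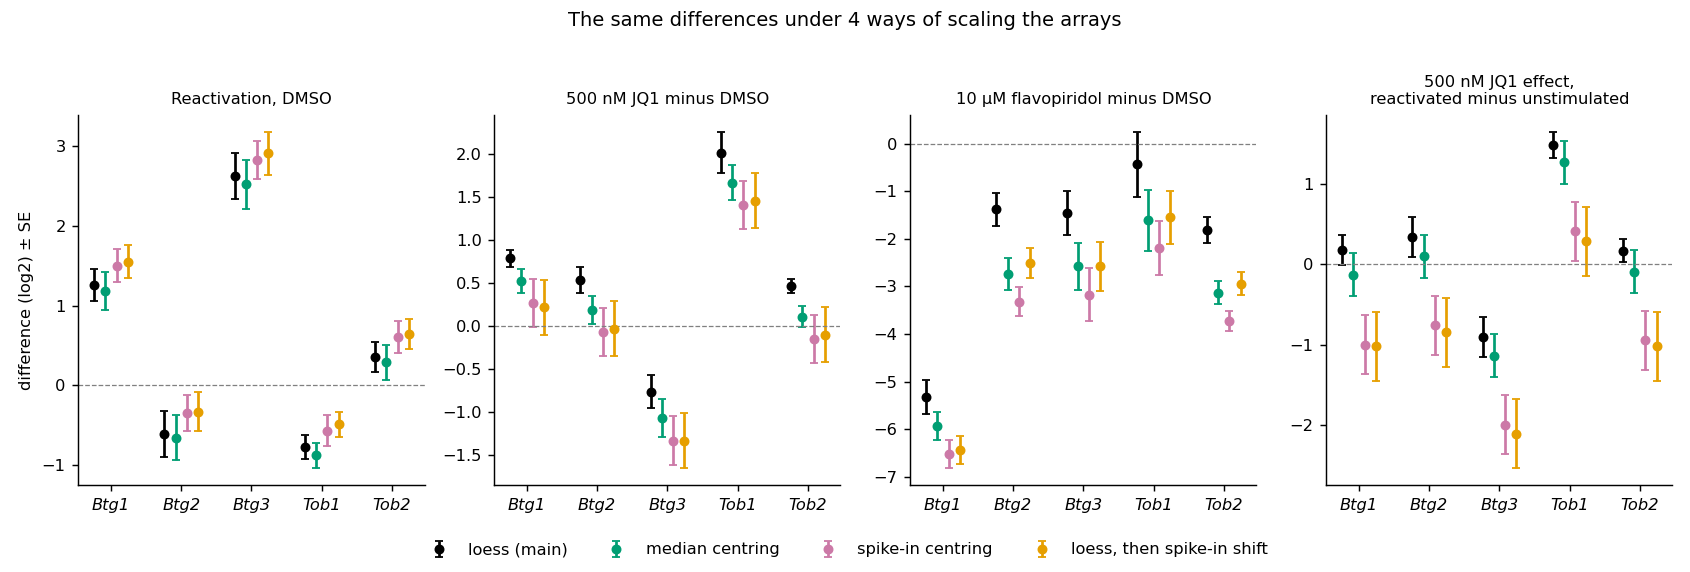
The same differences (log2, ± SE) of the 5 genes under loess, median centring, spike-in centring and loess with a spike-in shift. The rise of Btg3 on reactivation (2.63 after loess) and of Tob1 in JQ1 (2.02) stay above 0 under all 4, while Btg2 and Tob2 in JQ1 pass from 0.54 and 0.47 to -0.07 and -0.15 with spike-in centring.

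Partners of the family moved in both directions after loess. Genes of the partner and G1-S lists were examined in the loess fits only. Whether their calls hold under other scalings, with slide as a block or without single arrays was not tested. Their counts stand beside the shares of all genes called, which were 21.9% higher and 29% lower on reactivation in DMSO, 17.7% and 29.9% in 500 nM JQ1, 15.4% and 33.5% in 10 µM and 16.2% and 35.4% in 1 µM flavopiridol, and 31.1% and 22.3% against naive cells. Of 12 subunits listed for CCR4-NOT, 11 were tested. On reactivation in DMSO 2 were higher (the Caf1 deadenylase Cnot7, 0.53, and Cnot11, 1.02) and 2 lower (the Ccr4 deadenylases Cnot6, -0.52, and Cnot6l, -1.07), with a list median of 0.00 against -0.05 for all genes. In 500 nM JQ1, 1 was higher (Cnot4, 0.51) and 4 lower (median -0.09 against -0.07). In 10 µM flavopiridol 5 were lower and none higher (Cnot11 -1.72, Cnot8 -1.27, Cnot6l -1.17, Cnot1 -1.00 and Cnot2 -0.91), with a median of -0.39 against -0.22. At 1 µM 6 were lower, with Cnot11 at -2.16 ± 0.23 (adjusted p = 0.000114).

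Among 6 other RNA-binding adaptors of the deadenylase, 5 were lower in 10 µM flavopiridol, where 33.5% of all genes were (median -0.91 against -0.22), led by Zfp36l1 (-3.47 ± 0.29, adjusted p = 5.28e-05) and Zfp36l2 (-3.09 ± 0.54, 0.00171), which bind AU-rich elements. In 500 nM JQ1, 3 were higher and none lower, and on reactivation 2 were higher and 1 lower (Zfp36l1 1.79 and Zfp36l2 -2.23). Of the 4 genes for poly(A)-binding proteins and PAN2-PAN3, the other cytoplasmic deadenylase, 1 was higher and 2 were lower on reactivation. In JQ1 1 was higher (Pabpc1, 0.56) and 1 lower (Pan2, -0.46), and in 10 µM flavopiridol only Pabpc4 passed, at 0.90. Of 5 other partners 4 were tested, and the arginine methyltransferase Prmt1, which binds Btg1 and Btg2, was higher on reactivation (1.03) and lower in JQ1 (-0.92 ± 0.23, adjusted p = 0.00802).

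Of 13 regulators of the G1-S transition, 12 were tested. On reactivation 2 were higher and 6 lower, beside 21.9% and 29% of all genes (median -0.39 against -0.05), among them Ccnd2, a D-type cyclin, at 2.32 ± 0.14 (adjusted p = 0.000222), the Cdk inhibitor Cdkn1b at -2.82 ± 0.13 (0.000127) and Ccnd3 at -2.69 ± 0.24 (0.000445). In JQ1 5 were higher, led by Cdkn1b at 1.04 ± 0.18 (adjusted p = 0.00108), and 3 lower, led by Cdk6 at -0.79 ± 0.15 (0.00147). In 10 µM flavopiridol 3 were higher and 3 lower, the largest being the Cdk inhibitor Cdkn2c at -2.33 ± 0.39 (adjusted p = 0.00137). Against naive cells 9 were higher and 2 lower, beside 31.1% and 22.3% of all genes, with Cdkn1a at 4.61, Cdkn2c at 4.33 and the transcription factor E2f1 at 3.35. The tests of drug effect by reactivation gave Cdkn1b at 2.61 and Ccnd2 at -2.53 for flavopiridol, and Ccnd3 at 1.10 and Cdkn1b at 1.04 for JQ1.

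**Figure D5:**
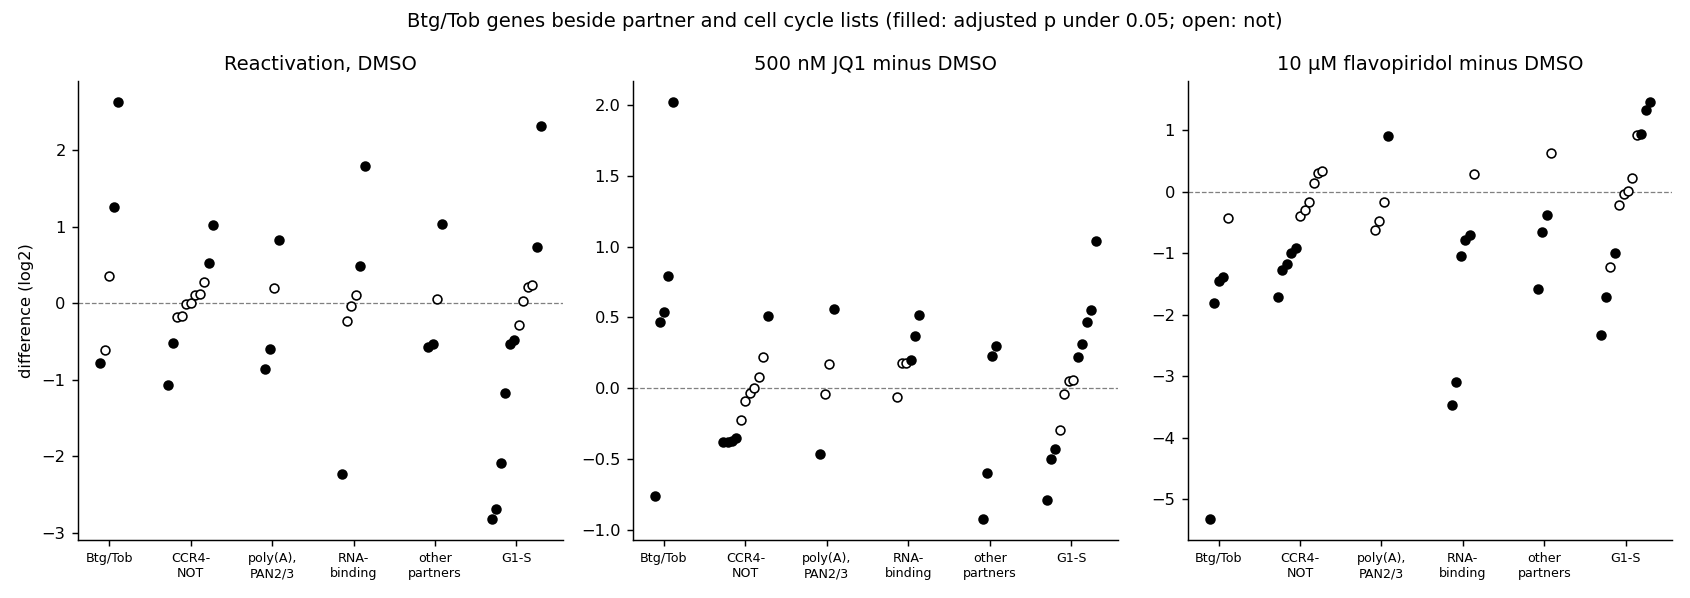
Differences (log2) on reactivation in DMSO, in 500 nM JQ1 and in 10 µM flavopiridol for the Btg and Tob genes and the 5 partner and cell cycle lists; each point is 1 gene, filled where the adjusted p was under 0.05. Members span -0.78 to 2.63, -0.76 to 2.02 and -5.32 to -0.43, and on reactivation each of the 5 lists holds filled points on both sides of 0.

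The genes whose pattern over the 24 arrays was most like that of a member were ranked by Pearson's r of the log2 ratios among 11814 genes, as a description only, since all arrays shared the reference and the 8 flavopiridol arrays weighed heavily. For Btg1, by its brightest probe, they were Zfand5 (0.986), Zfp622 (0.985) and Atf4 (0.982). Its second probe, which did not show the large fall in flavopiridol, was not ranked. For Btg2 they were Cggbp1 (0.955), Arhgap31 (0.950) and Crlf3 (0.946), and for Tob2 Med26 (0.973), Spty2d1 (0.971) and Sertad1 (0.963). For Btg3 they were Chst11 (0.966), Prag1 (0.959) and Zeb2 (0.954). Tob1 had the lowest values, with Cited2 (0.902), Efnb2 (0.901) and Klf4 (0.895). Among the members themselves, with Btg1 again by its brightest probe, Btg1 and Tob2 were most alike (r = 0.95, or 0.74 over the 16 arrays without flavopiridol). Btg1 and Btg2 had r = 0.79 over all arrays and -0.35 without flavopiridol, and Btg2 and Btg3 -0.01 and -0.76. Btg3 was unlike Tob1 in both sets (-0.04 and -0.35).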

How the data were processed

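Total RNA was labelled with a 2-colour kit and hybridised to Agilent mouse arrays, Cy3 for the culture and Cy5 for the naive reference, with no dye swap. Per the file headers, the deposited scanner files, made with Feature Extraction 10.7.1.1, hold Cy3 and Cy5 intensities of 62976 spots and a log10 ratio that was inverted to Cy3 over Cy5. A further table deposited by the authors holds log2 ratios of 34710 probes, whose normalization is not given in the sources used here; they correlated with the values used here at r = 0.981 to 0.996 (slope 0.967 to 1.04). Samples were grouped by the labels.

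Median intensities were background-corrected (normexp, offset 50) and loess-normalized within arrays with limma 3.58.1 in R 4.3.3, control spots having weight 0 and spots with an outlier flag left out. Spots of a probe were averaged (SD of repeat spots 0.0907 to 0.11), and the probe brightest over the 24 arrays stood for its gene. Probes were named by RefSeq accession (26425) or by symbol (12). Genes well above background in Cy3 on at least 3 arrays of a fit were tested with lmFit and eBayes, with context or pair as a block, and p-values were adjusted by Benjamini-Hochberg over all of them. An adjusted p under 0.05 was called. The number of arrays limits the precision. Alternatives covered normalization, background, filter, probe, slide, contexts and left-out arrays. The second Btg1 probe, the ranks of members among all genes, Th1 or Th2 pairs alone and the 24 hr JQ1 pairs were added after seeing the data. Each fit was tested on simulated data with 200 changed genes.

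All 5 members were tested in every comparison, though not every value is given above. From the partner lists up to 3 called genes with the largest change were picked per comparison, and most of them are named. For each member the 3 genes with the highest r were named, among those above background on at least 12 arrays. Other partner genes named in the text were chosen after their values were seen. Members and lists were chosen with earlier results of these data known.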

Additional observations from a re-analysis of the deposited data

Results flagged for a closer look

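The effect of 500 nM JQ1 differed between reactivated and unstimulated cells, by the test of that difference itself, for Tob1 (1.49 ± 0.16, SE, adjusted p = 0.00132) and for Btg3 (-0.91 ± 0.25, adjusted p = 0.0471). The Tob1 call was lost by the 2 spike-in scalings (0.41 and 0.29), and the Btg3 call in 11 of 12 fits without 1 array. The effect of 10 µM flavopiridol differed in the same way for Tob1 (2.47 ± 0.65, adjusted p = 0.0438) and for Btg3 (-2.11 ± 0.36, adjusted p = 0.0115). The Tob1 value is not exact, because the unstimulated Th1 10 µM array was not well above background, and its call was lost in 6 of 11 other settings and in 8 of 12 fits without 1 array. The Btg3 call was lost under all 3 other scalings (-2.30 to -1.85). The tests of both drugs used the same 4 DMSO arrays, so the 2 values of a gene are not independent of each other. No group had more than 1 array, so no array could be checked against others of its group.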

How the results depend on the processing

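Of 984 member values under alternative settings, 882 stayed on their side of the threshold (56 of these, not called in either fit, differed in sign), 59 lost and 29 gained a call and 14 turned. The cause was not tested. Turned values came from spike-in centring and from the spike-in shift after loess: for 500 nM JQ1 against DMSO Btg2 -0.07 and -0.03 and Tob2 -0.15 and -0.10, for 500 against 50 nM Btg2 -0.09 and -0.06 and Tob2 -0.17 and -0.14, and for the JQ1 effect in reactivated against unstimulated cells Btg1 -1.00 and -1.02, Tob2 -0.95 and -1.02 and, with centring only, Btg2 -0.76. Tob2 in Th1 against Th2 cells turned to -0.04 with the flavopiridol arrays included.

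The number of the 5 members called changed by over 1.5 times as follows. With median centring it was 1 for reactivation in flavopiridol (0 after loess), 3 for JQ1 500 nM against DMSO and against 50 nM (5 each) and 1 for the flavopiridol effect by reactivation (2). With spike-in centring it was 1 for reactivation in JQ1 (4), 4 for reactivation in flavopiridol, 5 for 1 µM flavopiridol (3), 2 for JQ1 500 nM against DMSO and against 50 nM, 0 for the flavopiridol and 4 for the JQ1 effect by reactivation (2). With the spike-in shift it was 0 for reactivation in JQ1, 3 for reactivation in flavopiridol, 2 for JQ1 500 nM against DMSO and against 50 nM, 0 for the flavopiridol effect by reactivation and 1 for Th1 against Th2 (2). Slide as a random block left 2 for 10 µM flavopiridol (4). Th1 contexts alone left 3 for JQ1 500 nM against DMSO and 2 against 50 nM, and leaving out the context block left 1. The flavopiridol effect by reactivation had 1 with the Cy3 channel alone, the scanner's log ratio, the authors' table, no filter on signal or a filter on every array. The JQ1 effect by reactivation had 1 without background correction, with the scanner's log ratio or without the filter. For 24 against 6 hr (0) 1 was called with the Cy3 channel alone, the authors' table or the second Btg1 probe, and against naive cells (2) 1 without the filter. Of smaller changes, both spike-in scalings gave 4 for reactivation in DMSO (3) and 3 against naive cells, where 2 were then higher and 1 lower, all 3 scalings gave 5 for 10 µM flavopiridol, median centring gave 3 for reactivation in JQ1, median centring and the spike-in shift gave 4 for 1 µM, and the spike-in shift gave 3, all lower, for the JQ1 effect by reactivation. Th1 against Th2 had 1 higher and 1 lower with median or spike-in centring, with the flavopiridol arrays and without the DMSO pairs. Other settings gave 3 for 10 µM flavopiridol, 2 for 1 µM and 4 for JQ1 500 against 50 nM, and without background correction 3 passed against naive cells.

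Leaving out 1 array at a time turned no called value. The counts ran from 2 to 4 for reactivation in JQ1, 0 to 1 in flavopiridol, 3 to 4 for 10 µM and for 1 µM flavopiridol, 3 to 5 for JQ1 500 against 50 nM, 0 to 3 for the flavopiridol and 1 to 2 for the JQ1 effect by reactivation, 1 to 3 for Th1 against Th2, 0 to 1 for 24 against 6 hr and 1 to 3 against naive cells, and stayed at 3 for reactivation in DMSO and at 5 for JQ1 500 nM against DMSO. The blocks were contexts and pairs of matched conditions, not replicate numbers. By these numbers no paired analysis was possible because each condition had 1 array. Slide as a random block could not be fitted for the drug effects in Th1 against Th2 cells, nor the Cy3 channel alone against naive cells. In simulated data with 200 changed genes, 98% of genes changed 2-fold were recovered for JQ1 500 nM against DMSO and 58% for 10 µM flavopiridol. For the flavopiridol effect by reactivation 6% were recovered. For that effect in Th1 against Th2 cells 0% were, and 36% of genes changed 4-fold. The real fits called 6144, 6076, 1968 and 2 genes in the same order. The adjusted p depends on how many genes change, so these percentages hold for the simulated setting only. Small differences can be missed, but how often in the real comparisons was not measured.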

Other observations

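Some partner genes passed, after loess, in comparisons in which only the members were described above. The 10 µM flavopiridol difference, negative for Zfp36l2, which binds AU-rich elements, was less so in reactivated than in unstimulated cells (by 2.42 ± 0.46, SE, limma adjusted p = 0.0157), and the effect of 500 nM JQ1 was lower there for the kinase gene Cdk2 (-0.79 ± 0.18, 0.026). Between the JQ1 doses, 500 against 50 nM, Cdkn1b was higher (0.75 ± 0.18, adjusted p = 0.0112), and Prmt1 (-0.72 ± 0.23, 0.0379) and Cdk6 (-0.63 ± 0.15, 0.00962) were lower. Cdkn1a (0.50 ± 0.09, adjusted p = 0.00598) and Ccnd3 (0.41 ± 0.09, 0.0119) were higher in Th1 than in Th2 cells, and the deadenylase gene Cnot6l was lower (-0.50 ± 0.09, 0.00424). Cdk6 (0.65 ± 0.14, adjusted p = 0.0418) and Ccnd2 (0.59 ± 0.11, 0.0289) were higher at 24 than at 6 hr in Th1 cells. Against naive cells, where 31.1% of all 11771 genes were called higher and 22.3% lower, 2 of 11 CCR4-NOT genes were higher and 2 lower, and of the 6 other RNA-binding adaptors 5 were lower and none higher, with a median of -0.72 against 0.08 for all genes.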
